A study of Mus musculus with 38 samples.

Results

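RNA in the polysome fraction of mouse metaphase II (MII) oocytes was compared with that of germinal vesicle (GV) oocytes, 3 libraries against 3 of the 38 in the series (36 have a column in the deposited table). The members are all genes of that table: 23125 are listed and 7967 were tested, those whose geometric mean reached 0.1 FPKM (sequenced fragments scaled to transcript length and library size) over the 36 libraries. Both groups were wild-type oocytes of ICR mice, collected at the GV stage after priming with PMSG, a gonadotropin that promotes follicle growth, and stripped of cumulus cells. IBMX, a phosphodiesterase inhibitor, held meiosis during collection. GV oocytes were lysed after 0 h of culture without IBMX and MII oocytes after 12 h, so that maturation took place in vitro and MII differs from GV by time in culture as well as by stage. Neither group received nocodazole, whereas zygotes and two-cell embryos in M-phase, used below for comparison, were held with 10 µM of this microtubule poison. Each library pools many oocytes, lysed with cycloheximide so that ribosomes stayed on their messages. The lysate was spread over 10 gradient fractions, of which the heavier 5 were pooled as polysomes and the lighter 5 as non-polysomes. FPKM is a share of each library, so a lower value cannot tell fewer molecules from a growth of the rest, and in bulk samples fewer cells holding a message and less of it per cell cannot be told apart.

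A fully grown GV oocyte is arrested in prophase of the first meiotic division and has nearly stopped transcription. On release it dissolves its nucleus, builds a spindle, extrudes a polar body and arrests again at metaphase II, and new proteins come from messages stored during growth. Cyclin B with CDK1 forms maturation-promoting factor (MPF), the anaphase-promoting complex (APC/C) with its activator Cdc20 destroys cyclin B and securin, and Mos through MAP kinase keeps the egg in the second arrest. Many stored messages are silent with short poly(A) tails. They are bound at cytoplasmic polyadenylation elements (CPEs) near the 3′ end, and cytoplasmic polyadenylation in maturation brings them to ribosomes.

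The 3′ ends of some genes that rose in polysomes by the test and did not rise by it outside them are shown first. The share of genes with a polyadenylation element there differed between the groups of genes described below. Among the genes shown, H2afx also stood higher outside polysomes in MII, a change that was not called. The last 100 bases of 1 annotated transcript per gene (GENCODE M21, build GRCm38) were searched on the transcript's strand for TTTTAT or TTTTAAT as the CPE and for AATAAA or ATTAAA as the polyadenylation hexamer. TTTTAAT can overlap the hexamer, as in TTTTAATAAA. Each line gives 30 bases of a 3′ untranslated region, 5′ to 3′, with element and hexamer in capitals. In the H2afx line the element TTTTAT also overlaps the hexamer ATTAAA.
Cdc20, chr4:118432911-118432940, minus strand: TTTTATTTTATtttttctAATAAAgttcgt
Omt2a, chr9:78312011-78312040, minus strand: ttaacggTTTTATAATAAATAAAagtttca
Omt2b, chr9:78329560-78329589, plus strand: ttaacggTTTTATAATAAATAAAagtttca
Magoh, chr4:107887351-107887380, plus strand: gggcaatTTTTATaaacAATAAAtgatgat
Obox2, chr7:15398490-15398519, plus strand: TTTTATtgttagagtatatgttcATTAAAt
H2afx, chr9:44336029-44336058, plus strand: aatgggctaaTTTTATTAAAggatcgtttg
Bub1b and Plat (which did not pass the test across all 36 libraries) and Zbed3 (which fell in both fractions) also hold the letters.
Bub1b, chr2:118641556-118641585, plus strand: cactgtgtaTTTTATAATAAAatagttttt
Plat, chr8:22782745-22782774, plus strand: gtatatttataTTTTAATctattttagttt
Zbed3, chr13:95337812-95337841, plus strand: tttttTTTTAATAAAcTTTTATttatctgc
Over the last 100 bases Cdc20, Omt2a, Omt2b, Obox2, Bub1b and Zbed3 carry 2 elements each. Neither Ccnb1, Mos, Nip7, Cenpa, H2afz nor Tcl1b1 holds those letters in the last 100 bases, although another annotated transcript of Ccnb1 and of H2afz does.

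Genes above 0.1 FPKM numbered 9930 to 10185 in MII and 8752 to 10257 in GV, and the 10 most abundant genes took 16.3% to 17.2% of all FPKM in either stage (exact two-sided permutation p = 0.8 for each, a test that with 3 against 3 cannot go below 0.1 and so shows no likeness). Depth relative to MII A, read from the steps between low FPKM values, was 1.08 in MII B and MII C and 1.05 to 1.29 in GV. MII A read 1.02 against itself, an offset of the method, so differences of that size cannot be read. GV replicates were less alike than MII replicates: their log2 values correlated over genes at 0.769 to 0.889, against 0.922 to 0.932 within MII, and the median SD of a gene was 0.728 against 0.419. The library least like its group was GV B, at 0.823 with GV A and 0.769 with GV C, and it had the 8752 genes. Between stages the correlations were 0.657 to 0.762. Oocyte markers summed to 3689 to 3846 FPKM in GV and 2416 to 3473 in MII. None of 13 cumulus or granulosa markers reached the minimum for testing, and their sum was 0.18 to 0.274 FPKM in GV and 1.17 to 5.23 in MII. Without a minimum 1 of the 13 was called higher in MII, and 1 of the 3 that average 1 FPKM or more was also called higher. The 4 blood genes found were at the floor of 0.01 FPKM in all 6 libraries. Late two-cell markers summed to 176 to 323 FPKM in GV and 42.2 to 64.9 in MII, although 4 of the 6 tested were higher in MII and 2 lower (median log2 change 2.52, none called), and the 2 sperm or testis markers found to 1.40 to 5.87. The part of any of these in the results was not tested.

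The leading messages of GV polysomes were Zbed3 and Ooep, both of the subcortical maternal complex that eggs store for the embryo, followed by the ubiquitin gene Ubb. In MII the leading messages were Ubb and AU022751, and 2 of the top 10 genes, Ubb and the pseudogene Gm1821, were shared by both stages. Between MII and GV 268 genes rose, which is 3.36% of those tested, and 219 fell, which is 2.75% (limma over all 36 libraries, Benjamini-Hochberg adjusted p under 0.05 and a fold beyond 2). The median of the genes that rose went from 1.86 to 20.9 FPKM and that of the genes that fell from 21.8 to 2.16 FPKM, with median log2 changes of 3.45 and -2.93. All 268 genes that rose and 216 of the 219 that fell had no overlap between the 3 GV and 3 MII values, as had 47.5% of all genes tested. The median over all tested genes was a log2 change of 0.18. Of the called genes, 37 that rose and 57 that fell are pseudogenes, which can share reads with their parent genes.

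The number of calls depended on which libraries set the error. A limma fit of the 6 libraries alone called 1279 genes higher (16.1%) and 883 lower (11.1%), among them 244 of the 268 and 194 of the 219. The fits differ in the spread they use, since the 36 libraries include groups such as two-cell non-polysomes, with a median SD of 1.64. The 487 calls became 320 without MII A, 294 without MII B, 292 without MII C, 346 without GV A, 318 without GV B and 414 without GV C. Quantile scaling moved the median change from 0.18 to -0.13 and turned the split of 268 higher and 219 lower into 701 higher and 844 lower. Adjusted p-values below come from the 36-library fit unless the 6-library fit is named.

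The Cdc20 message, for the activator of the APC/C, stood at 4.77, 5.85 and 4.48 FPKM in GV polysomes A, B and C and at 130.4, 136 and 157 FPKM in MII, a 28.1-fold rise (log2 4.81 ± 0.36 SE, adjusted p = 8.98e-10). Every MII library lay far above every GV library, and the call held without any 1 of the 6 (adjusted p 9.05e-09 to 5.26e-08). Ccnb1, cyclin B1, went from 32.8, 31.6 and 47.8 FPKM to 122, 108 and 132 FPKM, or 3.27-fold (log2 1.71 ± 0.42 SE, adjusted p = 0.0115). Its groups did not overlap, but the call was lost without MII C, GV A or GV B (adjusted p up to 0.0562). Its kinase partner went the other way. Cdk1 fell from 19.4, 16.8 and 20.4 FPKM to 2.49, 1.63 and 3.0 FPKM (log2 -3.03 ± 0.61 SE, adjusted p = 0.00162), and Cdk1 levels in MII were 8.18-fold lower. Ccnb2, the other B cyclin, read 3.73, 3.62 and 10.3 FPKM in GV and 5.54, 3.20 and 6.21 FPKM in MII, with overlapping groups. Of 24 tested genes of MPF and its regulators, Ccnb1 was the 1 that rose and Cdk1 the 1 that fell (4.17% each, against 3.36% and 2.75% of all genes), and the 6-library fit called 3 higher and 2 lower, against 16.1% and 11.1% of all genes.

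Pttg1, the securin that holds back separase, fell from 408, 1028 and 367 FPKM to 51.0, 55.1 and 51.4 FPKM, 10.2-fold lower (log2 -3.35 ± 0.37 SE, adjusted p = 5.21e-07). The 3 MII values lay within a few FPKM of each other, below all GV values. Ube2s, the E2 enzyme that extends ubiquitin chains on APC/C substrates, fell from 42.4, 27.0 and 25.8 FPKM to 4.29, 4.55 and 4.44 FPKM (log2 -2.80, adjusted p = 1.96e-05). Anapc11, the RING subunit of the complex, fell from 24.7, 31.8 and 6.92 FPKM to 1.99, 2.07 and 1.57 FPKM (log2 -3.24, adjusted p = 0.000113). Of 27 tested genes of the APC/C, checkpoint and securin list 2 rose (7.41%, against 3.36% of all genes) and 3 fell (11.1%, against 2.75%), and the list's median change was 0.01, or -0.27 after quantile scaling. The second gene that rose was Mad2l1bp, which silences the spindle checkpoint (log2 3.03, adjusted p = 0.0484). Its call held only without GV C and was lost without any other library (adjusted p 0.046 to 0.204).

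Mos, the kinase that starts the MAP kinase cascade of the cytostatic arrest, stood at 481, 837 and 478 FPKM in GV and 1442, 2021 and 1926 FPKM in MII. The groups did not overlap, and Mos was 3.08-fold higher in MII, but with a SE of 1.44 on the log2 scale the change of 1.62 was not called over 36 libraries (adjusted p = 0.628), whereas the 6-library fit called it (adjusted p = 0.0237). Mapk3, the ERK1 kinase at the end of that cascade, fell from 489, 358 and 201 FPKM to 34.3, 25.3 and 28.5 FPKM (log2 -3.49, adjusted p = 0.0187). The Mapk3 call was lost without MII B, MII C, GV A or GV B (adjusted p up to 0.0862). The 12 tested genes of the Mos and MAP kinase list had a median log2 change of -1.33 against 0.18 over all genes, and 2 of them fell (16.7%, against 2.75% of all genes) and none rose. The 6-library fit called 3 higher and 3 lower, against 16.1% and 11.1% of all genes.

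Of 16 genes for cAMP signalling, which holds prophase arrest, 7 passed the minimum for testing, with a median log2 change of -1.96, and over all 16 without a minimum the median was -0.17. Gnas, the stimulatory G protein alpha subunit that drives cAMP production, fell from 11.3, 5.86 and 18.8 FPKM to 0.271, 0.166 and 0.179 FPKM (log2 -5.74 ± 1.21 SE, adjusted p = 0.00244). The lowest GV library stood far above the highest MII library. Gpr3, the receptor that keeps this G protein active in the oocyte, read 87.3, 77.4 and 61.8 FPKM in GV and 18, 18.7 and 21.1 FPKM in MII. The groups were apart, and the log2 change of -1.96 passed in the 6-library fit (adjusted p = 0.00305 there, 0.217 over 36). Pde3a, the phosphodiesterase that degrades oocyte cAMP, stayed under the minimum for testing, at 0.102 to 0.207 FPKM in GV and 0.0537 to 0.0941 FPKM in MII. Of these 7 genes Gnas was the 1 that fell (14.3%, against 2.75% of all genes) and none rose.

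H2afx, the histone variant H2A.X that marks broken DNA when phosphorylated, stood at 5.04, 30.4 and 5.05 FPKM in GV and at 1035, 883 and 654 FPKM in MII (log2 6.52 ± 1.37 SE, adjusted p = 0.00249). All MII libraries lay above GV B, the highest of the GV libraries, as the rule that named H2afx required. Outside polysomes H2afx went from 105, 118 and 65.8 FPKM in GV to 829, 791 and 695 FPKM in MII. That log2 change of 3.04 was not called (adjusted p = 0.138). H2afv, a variant of the H2A.Z type, rose from 0.730, 0.588 and 0.697 FPKM to 3.84, 8.95 and 4.70 FPKM (log2 3.03, adjusted p = 8.91e-05). Its relative H2afz rose from 3.66, 1.79 and 5.19 FPKM to 10.9, 21.4 and 14.8 FPKM (log2 2.22, adjusted p = 0.00897), a call lost without MII B or GV B (adjusted p up to 0.0855). Cenpa, the histone that marks centromeres, rose from 1.8, 4.55 and 2.19 FPKM to 10.5, 19.3 and 14.6 FPKM (log2 2.45 ± 0.54 SE, adjusted p = 0.00422) without overlap. Against these, Dppa3, which protects maternal DNA methylation in the zygote, fell from 161, 155 and 355 FPKM to 45.4, 45.0 and 53.8 FPKM (log2 -2.11, adjusted p = 0.000531). The maternal chromatin list thus held 3 rises (7.32%, against 3.36% of all genes) and 1 fall (2.44%, against 2.75%) among 41 tested genes, with a median of -0.02. Cenpa was the sole rise among 26 centromere and kinetochore genes (3.85%). In the 6-library fit the chromatin list held 6 rises and 6 falls and the centromere list 5 and 1. Of all genes 16.1% rose and 11.1% fell in that fit.

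**Figure D1:**
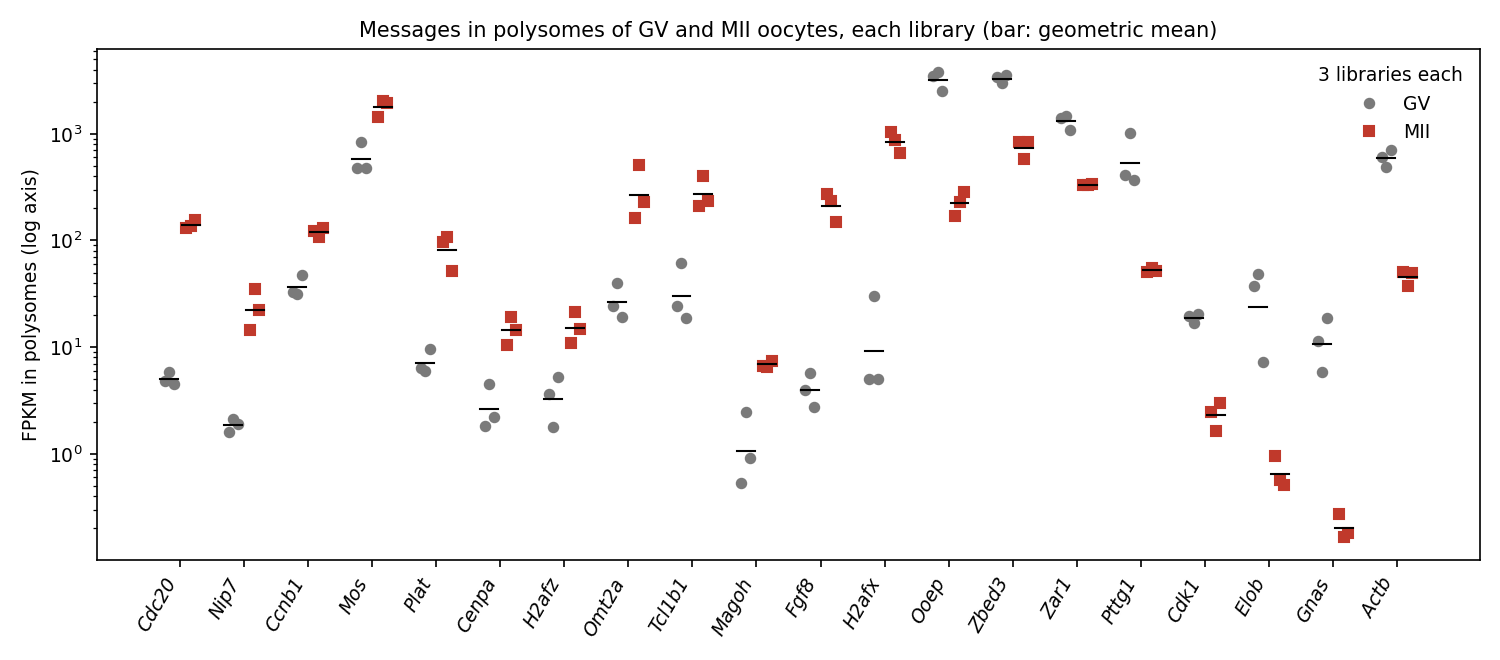
FPKM in polysomes on a log axis for 20 genes, with grey circles for the 3 GV libraries, red squares for the 3 MII libraries and a bar at each geometric mean. Cdc20 goes from 4.48 to 5.85 FPKM in GV to 130.4 to 157 FPKM in MII, whereas Ooep goes from 2497 to 3758 FPKM down to 169 to 284 FPKM.

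Ooep and Zbed3, the leading messages of GV polysomes, both fell. Ooep, a core protein of the subcortical maternal complex, fell from 3479, 3758 and 2497 FPKM to 169, 231 and 284 FPKM (log2 -3.84 ± 0.42 SE, adjusted p = 4.66e-07). Zbed3, a member of the same complex, fell from 3403, 2971 and 3528 FPKM to 838, 574 and 846 FPKM (log2 -2.15, adjusted p = 0.00119). These were the 2 genes called among 19 of the list (10.5% lower, against 2.75% of all genes), with none higher, while Nlrp5, another member, read 1.46, 0.461 and 1.58 FPKM in GV and 1.97, 0.791 and 0.549 FPKM in MII with overlapping groups. Zar1, which binds stored messages in growing oocytes, went from 1407, 1469.9 and 1087 FPKM to 329.9, 333 and 337 FPKM. The Zar1 groups were far apart, with a log2 change of -1.97 that missed the threshold over 36 libraries (adjusted p = 0.062) and passed in the 6-library fit (adjusted p = 0.00548). Of 37 tested genes for message storage and cytoplasmic polyadenylation none was called in either direction, and their median was -0.67. In the 6-library fit 3 of these rose and 5 fell (16.1% and 11.1% of all genes in that fit), and Cpeb1, the protein that binds CPEs, was among the rises (1.70, 1.47 and 2.20 FPKM against 3.85, 6.10 and 3.74 FPKM, adjusted p = 0.0349 there).

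The zona pellucida genes Zp1, Zp2 and Zp3 had log2 changes of 0.12, 0.01 and -0.35, none past the threshold, with SEs of 0.82 to 1.32. Gdf9 and Bmp15, growth factors that oocytes send to the follicle cells, had changes of -0.79 and -1.89, and Bmp15 passed in the 6-library fit (adjusted p = 0.0143). Orai1, a calcium channel of the plasma membrane, rose from 5.68, 6.0 and 2.16 FPKM to 69.9, 61.8 and 43.4 FPKM (log2 3.77 ± 0.46 SE, adjusted p = 2.13e-06). Fgf8, a growth factor made by oocytes, rose from 3.93, 5.72 and 2.74 FPKM to 272, 233 and 150.4 FPKM (log2 5.75, adjusted p = 0.00988). Omt2a and Omt2b, neighbouring oocyte genes that are near-identical at their 3′ ends and may share reads, rose by 3.32 ± 0.39 SE (adjusted p = 1.58e-06) and 3.24 ± 0.39 SE (adjusted p = 1.67e-06) on the log2 scale. Obox2, an oocyte homeobox gene, rose from 11.7, 11 and 13.9 FPKM to 111, 78.1 and 38.9 FPKM (log2 2.52, adjusted p = 0.00533), and without MII A its adjusted p was 0.0504. Of 19 tested genes in the list of oocyte-secreted factors and oocyte transcription factors 5 rose (26.3%) and none fell, against 3.36% higher among all genes. The remaining gene was Obox1, which shares much sequence with Obox2, and without MII A 3 of the 5 were called.

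A list of 23 messages that the literature describes as recruited to polysomes in maturation had a median log2 change of 0.99, against 0.18 over all genes. Members that rose were Cdc20 and Ccnb1 in the 36-library fit (8.70%, against 3.36% of all genes), and 10 rose and 1 fell in the 6-library fit (16.1% and 11.1% of all genes in that fit). Plat, tissue plasminogen activator and the classic example of a message polyadenylated in maturation, read 6.43, 6.03 and 9.51 FPKM in GV and 96.7, 107 and 51.3 FPKM in MII. Its groups were far apart, with a log2 change of 3.50 ± 1.34 SE that passed in the 6-library fit (adjusted p = 0.00216) and not over 36 (adjusted p = 0.137). Bub1b, a checkpoint kinase, read 2.13, 3.33 and 4.10 FPKM in GV and 20, 17.7 and 6.94 FPKM in MII (adjusted p = 0.0223 in the 6-library fit). Btg4, the adaptor that brings the CCR4-NOT deadenylase to maternal messages, overlapped between stages (9.22, 7.87 and 19 FPKM against 19.7, 31.5 and 11 FPKM). Cnot8, a catalytic subunit of that deadenylase, rose from 1.06, 0.325 and 0.731 FPKM to 5.87, 13.5 and 9.86 FPKM (log2 3.87, adjusted p = 0.00167), the single call among 36 genes for deadenylation and clearance (2.78%, against 3.36% of all genes). Its paralogue Cnot7 had a log2 change of 0.70 with overlapping groups. The medians of the deadenylation list (0.12), the spindle list (0.19), the ubiquitin list (0.17) and the zona list (0.06) turned negative after quantile scaling.

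Among the genes named for the size of their rise, Tmem102 had the largest, from 0.01, 0.107 and 0.130 FPKM to 35.1, 39.6 and 27.1 FPKM (log2 9.34, adjusted p = 0.000297), with GV A at the floor. Emg1, a methyltransferase that modifies the RNA of the small ribosomal subunit, rose from 1.30, 0.959 and 1.61 FPKM to 72.6, 119 and 91.9 FPKM (log2 6.20 ± 0.90 SE, adjusted p = 2.69e-05). Nip7, named as an anchor gene and needed to process pre-ribosomal RNA, rose from 1.59, 2.12 and 1.92 FPKM to 14.4, 35.2 and 22.4 FPKM (log2 3.59 ± 0.44 SE, adjusted p = 2.57e-06). The Nip7 groups did not overlap, whereas genes named for their rise, such as Emg1, were chosen without overlap. The calls of Emg1 and Nip7 both held without any 1 of the 6 libraries. Upp1, a uridine phosphorylase, rose from 0.421, 0.937 and 0.077 FPKM to 33.4, 30.3 and 32.4 FPKM (log2 6.68, adjusted p = 0.00971), with an adjusted p of 0.0684 without GV C. Dohh, the enzyme that completes hypusine on the translation factor eIF5A, rose by 6.79 (adjusted p = 0.0144, up to 0.155 without MII B or GV B), with GV B at the floor. Rps27rt, a retrogene of a ribosomal protein, rose by 8.08 (adjusted p = 0.00222) and Mvd, of the mevalonate pathway, by 6.83 (adjusted p = 0.0476), each also with GV B at the floor. Mvd, Ppie and Sco2 lost their calls without any 1 of the 6 libraries (adjusted p from 0.052).

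Among the genes named for the size of their fall, Rln3, which encodes relaxin 3, fell from 146, 289 and 73.1 FPKM to 3.38, 2.48 and 2.01 FPKM (log2 -5.82 ± 0.71 SE, adjusted p = 2.43e-06). Elob, elongin B of the cullin ubiquitin ligases, fell from 37.7, 48.3 and 7.23 FPKM to 0.958, 0.562 and 0.507 FPKM (log2 -5.19, adjusted p = 8.19e-06). Swi5, a recombination protein, fell from 41.5, 44.0 and 35.3 FPKM to 1.0, 1.63 and 1.13 FPKM (log2 -5.03, adjusted p = 4.38e-09). The rule that named these genes required no overlap, so a gap between the stages follows from it. Arf5, a GTPase of membrane traffic, fell from 169, 140.4 and 128 FPKM to 5.30, 3.96 and 4.12 FPKM (log2 -5.03, adjusted p = 2.92e-08). Pebp1, an inhibitor of RAF kinase, fell from 62.5, 105 and 42.5 FPKM to 2.84, 2.98 and 2.38 FPKM (log2 -4.59, adjusted p = 4.38e-09). The calls of these 5 genes held without any 1 library, while those of Haus5, Tmem50a and Ift20, also among the 12 largest falls, were lost without any 1 of the 6 (adjusted p 0.0638 to 0.148). Of the cytoskeleton, Actb, beta actin, fell from 603, 491 and 712 FPKM to 50.8, 37.3 and 49.5 FPKM (log2 -3.71, adjusted p = 1.4e-05), and Tubg2, a gamma tubulin, from 166, 185 and 160.2 FPKM to 18.5, 11 and 17.8 FPKM (log2 -3.47, adjusted p = 9.38e-06). With the myosin light chains Myl6 and Myl12a, 4 of 44 tubulin and actin genes fell (9.09%, against 2.75% of all genes) and none rose. In the 6-library fit 9 of the 44 rose and 7 fell (16.1% and 11.1% of all genes in that fit), and the list's median change was -0.11.

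Of 81 tested cytosolic ribosomal protein genes 19 rose (23.5%, against 3.36% of all genes) and 4 fell (4.94%, against 2.75%), with a median log2 change of 1.38 against 0.18 over all genes, and in the 6-library fit 34 rose and 5 fell (16.1% and 11.1% of all genes in that fit). Outside polysomes 45 of the 81 rose and 2 fell (13.5% and 3.14% of all genes there), with a median of 2.58. Without 1 library 11 (MII B) to 16 (GV A) rose and 1 to 3 fell. Rps9 rose from 8.33, 2.39 and 2.89 FPKM to 38.8, 51.4 and 47.1 FPKM (log2 3.56, adjusted p = 3.97e-05). Rplp0, of the ribosomal stalk, rose from 85.4, 108 and 49.3 FPKM to 281, 240.5 and 261 FPKM (log2 1.76, adjusted p = 0.000438). Rps24 fell from 8.08, 9.28 and 3.86 FPKM to 1.13, 0.937 and 1.51 FPKM (log2 -2.50, adjusted p = 0.00394). The other falls were Rpl11, Rpl22 and Rps28. Rpl10l and Rps27 were at the floor of 0.01 FPKM in all GV libraries, so no fold is given for them. These genes have many processed pseudogenes, between which their reads may be divided. A 5′ terminal oligopyrimidine tract, defined here as a C at the start site with at least 5 pyrimidines in a row, was found at the RefSeq start (GRCm38.p6) of 13 of 61 tested ribosomal protein genes with an entry (21.3%), against 2.49% of all promoters. It was present in 2 of the 12 such genes that rose and in 0 of the 4 that fell. The tract was sought at the single annotated start base, so these shares depend on where that base was placed. Rpl7a and Rpl27a, whose annotated starts are runs of pyrimidines beginning with T, counted as without it. Absence by this rule is not evidence that a message lacks the tract.

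Mitochondrial and proteasome genes are read against the 3.36% of all genes that rose and the 2.75% that fell. Of 73 mitochondrial ribosomal protein genes 6 rose (8.22%) and 1 fell (1.37%), with a median of 0.88 (3 or 4 rises without 1 library). Mrpl2 rose from 9.48, 7.98 and 6.4 FPKM to 82.8, 94.3 and 71.6 FPKM (log2 3.39, adjusted p = 0.000115). Of 40 proteasome genes 5 rose (12.5%) and none fell, with a median of 1.15, and 2 or 3 rose without any 1 library, where Psmb1 lost its call in each fit (adjusted p 0.0531 to 0.084) and Psmb5 in all but 1 (0.0388 to 0.112). Psmb6, a catalytic subunit, rose from 65.5, 110.1 and 35.9 FPKM to 265, 344 and 216 FPKM (log2 2.08, adjusted p = 0.00387). Of 79 oxidative phosphorylation genes 9 rose (11.4%) and 7 fell (8.86%), with a median of 0.60. Atp5j2, of ATP synthase, rose from 3.45, 8.53 and 1.31 FPKM to 33.4, 41.3 and 31.5 FPKM (log2 3.38, adjusted p = 0.000489). The 7 that fell were Cox6a1, Cox6b1, Cox6b2, Cox6c, Cox8a, Ndufa1 and Ndufa4. Without GV C or MII B 5 rose in place of 9. Cox8a fell from 300.4, 629 and 143 FPKM to 31.3, 28.9 and 22.9 FPKM (log2 -3.45, adjusted p = 1.51e-06), with GV B the highest and no overlap. Of 21 tested mitochondrial import genes 3 rose (14.3%, 2 without any 1 library) and none fell, led by Timm13 (9.43, 14.8 and 3.51 FPKM to 140.2, 166 and 80.5 FPKM, adjusted p = 0.000148). In the 6-library fit 6 import genes rose and 3 fell, and 16 proteasome genes rose and 2 fell. Of all genes 16.1% rose and 11.1% fell in that fit.

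Of 46 initiation factor genes 3 rose (6.52%, against 3.36% of all genes) and 1 fell (2.17%, against 2.75%), and 1 or 2 rose without 1 library. Eif2b2, a subunit of the exchange factor for eIF2, rose from 11.8, 12.8 and 5.81 FPKM to 77.6, 64.3 and 54.8 FPKM (log2 2.76, adjusted p = 0.00026), and Eif1, which guards start codon choice, fell from 208, 227 and 265 FPKM to 96.3, 110.3 and 118 FPKM (log2 -1.11, adjusted p = 0.00389). Of 26 mTOR pathway genes none was called, with a median of -0.71, and 2 rose and 6 fell in the 6-library fit (16.1% and 11.1% of all genes in that fit). Of 26 aminoacyl-tRNA synthetase genes none rose and 1 fell (3.85%), the mitochondrial Lars2 (log2 -2.79, adjusted p = 0.00157), while their median was 1.09 and 8 rose and 2 fell in the 6-library fit, to be read against the same 16.1% and 11.1%. Among 65 ribosome biogenesis genes Nip7, Emg1, Imp4 and Snu13 rose (6.15%) and Imp3 and Nop10 fell (3.08%), Imp3 from 108, 113 and 114 FPKM to 28.0, 18 and 22.3 FPKM (log2 -2.32, adjusted p = 4.22e-05). Calls were lost for Imp4 without MII A, MII C or GV C, for Snu13 without MII B, MII C, GV A or GV C and for Nop10 without GV B (adjusted p up to 0.0995). Of 21 RNA polymerase subunits 4 rose (19%) and 1 fell (4.76%). The 4 became 1 without GV C, 2 without GV A, MII B or MII C and 3 without MII A, since Polr2c, Polr2d and Polr2i each lost their calls in some of these fits (adjusted p up to 0.268). Polr2e rose (log2 2.06, adjusted p = 0.00222) and Polr2j fell (log2 -2.23, adjusted p = 0.000909), and both held without any 1 library.

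**Figure D2:**
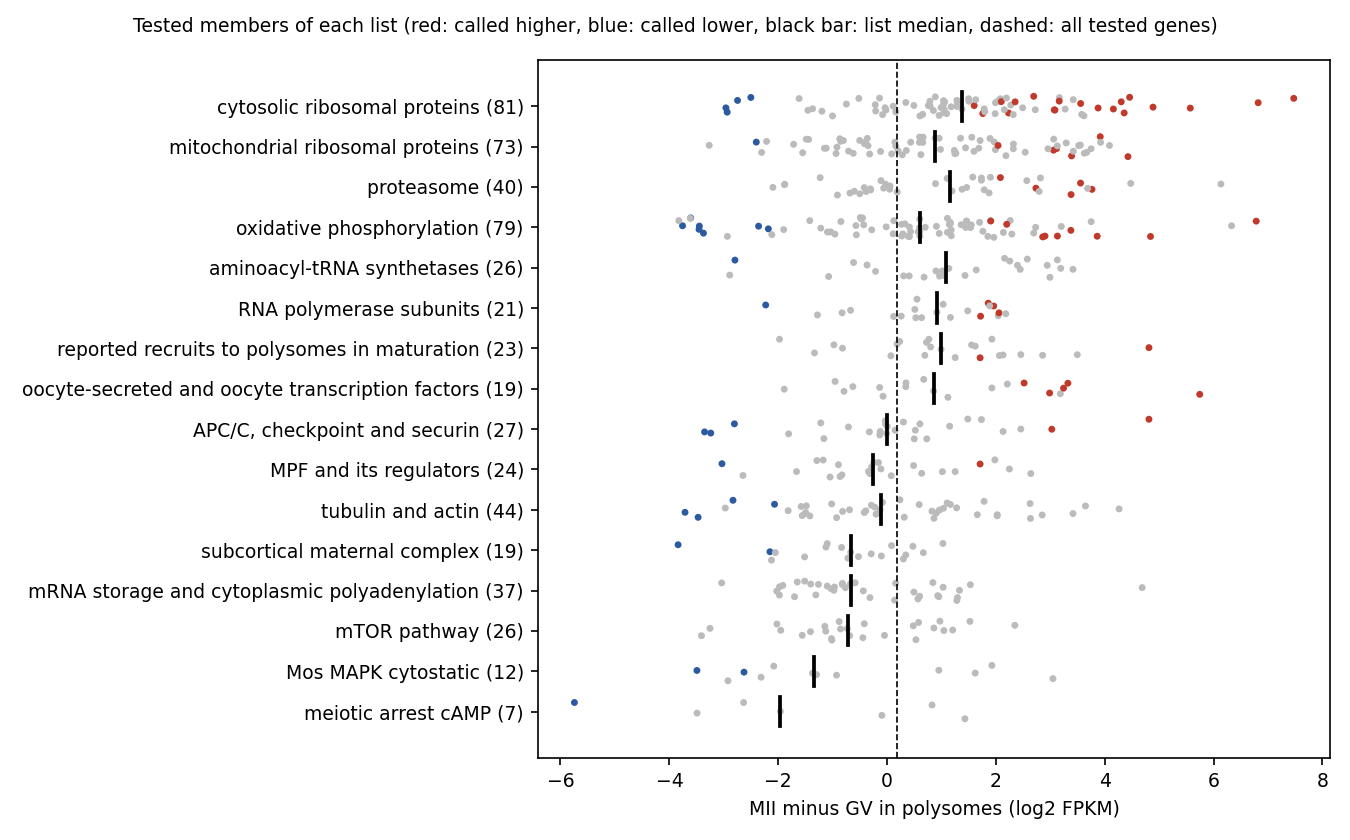
Log2 change in polysomes of each tested member of 16 gene lists, with the number tested in brackets, red for genes called higher, blue for genes called lower, a black bar at the list median and a dashed line at the median of all tested genes, 0.18. Cytosolic ribosomal proteins sit to the right with a median of 1.38 and the 7 tested of the 16 cAMP genes to the left at -1.96 (-0.17 over all 16).

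The polysome change was set against the change in the non-polysome fraction of the same stages, which asks whether a message's value changed differently in the 2 fractions. Each fraction is scaled to its own library, so equal changes do not mean that the part of a message on polysomes stayed the same. In non-polysomes 1076 genes rose (13.5%) and 250 fell (3.14%). After quantile scaling 1046 rose and 1075 fell there, and the median change went from 0.44 to -0.39. The overlaps that follow are from the fit without that scaling. Of the 268 genes that rose in polysomes 210 also rose in non-polysomes (78.4% of the polysome calls and 19.5% of the non-polysome calls), 57 were not called there and 1 fell. Of the 219 that fell 114 also fell in non-polysomes (52.1% and 45.6%) and 105 were not called there. Emg1 rose in both fractions, with non-polysome means of 1.51 ± 1.36 FPKM in GV and 125 ± 24.5 FPKM in MII (SD, n = 3). Orai1, Fgf8, Rps9 and Mrpl12 rose in both as well, and Pttg1 fell in both, from 3309 ± 325 to 260.4 ± 51.1 FPKM outside polysomes.

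The changes of the 2 fractions differed for 13 genes, 9 with the more positive change in polysomes (0.113% of those tested) and 4 with the more negative (0.0502%). That fit takes the libraries as independent, whereas both fractions of a letter came from the same gradients. In limma on the difference of fractions within each stage and letter 0 genes were called (612 at an unadjusted p under 0.05). Cdc20 had non-polysome means of 57.1 ± 18 FPKM in GV and 113 ± 11 FPKM in MII (SD, n = 3), and its change was larger in polysomes by 3.79 ± 0.51 SE on the log2 scale (adjusted p = 0.000333). Nip7 outside polysomes went from 31.4 ± 16.0 to 27.3 ± 5.36 FPKM, a difference between fractions of 3.69 ± 0.62 (adjusted p = 0.00455). Omt2a went from 589.6 ± 193 to 569 ± 124 FPKM, a difference of 3.34 ± 0.55 (adjusted p = 0.00436). The calls of these 3 genes held without any 1 of the 6 polysome libraries but not within letters, where the adjusted p was 0.109 for Cdc20 and 0.209 for Nip7 and Omt2a. Magoh, of the exon junction complex, rose in polysomes from 0.536, 2.49 and 0.920 FPKM to 6.67, 6.58 and 7.47 FPKM and fell outside from 32.7 ± 10.2 to 10.9 ± 2.28 FPKM, a difference of 4.24 (adjusted p = 0.00898, and 0.0586 without GV A). Tcl1b1, an oocyte gene of the Tcl1 family, rose in polysomes from 24.5, 61.0 and 18.6 FPKM to 212, 399 and 232 FPKM with 436 ± 77.6 and 435 ± 72.0 FPKM outside, a difference of 3.16 (adjusted p = 0.0102, and up to 0.0658 without MII B or GV A). H3f3b, which encodes histone H3.3, had 73.8, 78.1 and 92.9 FPKM in GV and 106, 143 and 119 FPKM in MII polysomes. It fell outside from 415 ± 28.1 to 183 ± 31.6 FPKM, a difference of 1.78 (adjusted p = 0.00884, and 0.0505 without GV A).

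Omt2b differed by 2.65 (adjusted p = 0.0359) and Fbxl6, of the F-box family, by 2.41 (adjusted p = 0.0359), and both calls held in 2 of the 6 fits that left out a library (adjusted p up to 0.132). Gm11993 differed by 2.29 and held in 1 of the 6. On the negative side, 0610012G03Rik fell in value from 223, 376 and 109 FPKM to 109, 122 and 108 FPKM in polysomes, a change that did not pass, and rose outside from 71.5 ± 12.4 to 232 ± 33.8 FPKM, a difference of -2.59 (adjusted p = 0.0248). That call held only without GV C (adjusted p up to 0.0866). Gm10288, Gm9797 and Gm9035 completed the list, and among these Gm9035 kept its call in all 6 such fits. Ccnb1 stood at 180.4 ± 77.6 and 92.1 ± 21.6 FPKM outside polysomes, and its difference of 2.60 ± 0.60 missed the threshold (adjusted p = 0.069). Arf5, which fell in both fractions, differed by -2.82 (adjusted p = 0.0706), and a fit of the 12 oocyte libraries called it (adjusted p = 0.00698) as it did Ccnb1 (adjusted p = 0.0226), while it did not call Omt2b (adjusted p = 0.0777) or Gm9797 (adjusted p = 0.0781). Over all genes the median difference between fractions was -0.59, or -0.09 after quantile scaling, which raised the 13 calls to 70. The 13 became 8 without MII A, 6 without MII B, 8 without MII C, 4 without GV A and 24 without GV C.

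**Figure D3:**
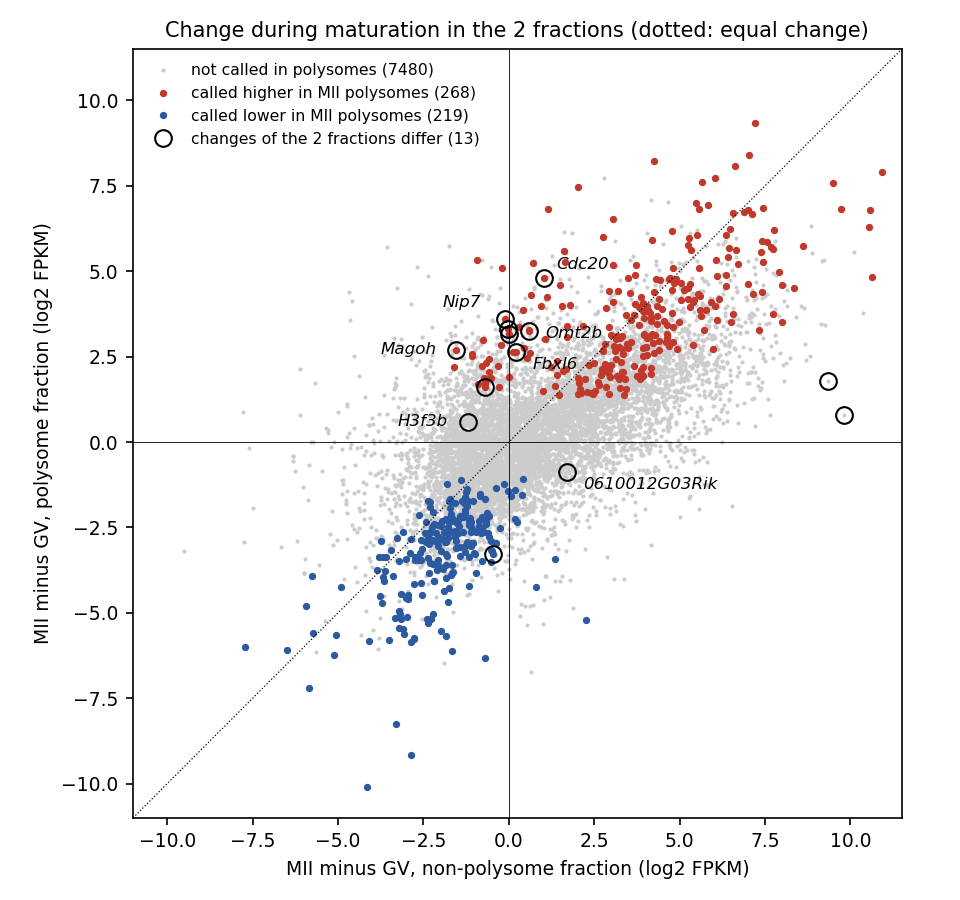
Log2 change from GV to MII of each tested gene in non-polysomes (x axis) and polysomes (y axis), with red and blue for genes called higher and lower in polysomes and circles around the 13 genes whose changes differed between fractions. Of the 268 red points 245 lie to the right of 0 on the x axis, whereas Cdc20, Nip7, Omt2b and Magoh stand high above the dotted line of equal change.

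The share of genes with a CPE was counted over the called genes and over all genes of higher level. Of 6319 tested protein-coding genes with a transcript 18.8% held the element in the last 100 bases. The share was 19.5% of 215 genes that rose in polysomes and 15.7% of 127 that fell. Among the risers it was 13.6% of the 169 that also rose in non-polysomes and 40.0% of the 45 that were not called there, and 2 or more elements were present in 0.592% and 17.8% of these groups. Among the genes that fell it was 12.5% of the 72 that fell in both fractions and 20% of the other 55.

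The 1749 protein-coding genes with at least 10 FPKM in an oocyte group were ordered by the polysome change minus the non-polysome change and divided into quintiles. The share with a CPE was 7.71%, 10.6%, 14%, 16.3% and 41.4% from the lowest to the highest quintile, and 18% over all of them. In counts these were 27, 37, 49, 57 and 145 genes of about 350 each. Ordered by the polysome change alone, the shares were 12.3%, 19.7%, 23.5%, 19.7% and 14.9%. Ordered by the non-polysome change alone, they were 24.6%, 29.4%, 16.9%, 9.43% and 9.71%, highest among genes that were lower or little changed outside polysomes in MII. The difference between fractions contains both changes, so its quintiles are not independent of either ordering. The highest quintile also had the 3′ ends poorest in G and C, with a median of 35% against 41% to 43% in the others. With the genes split at the median of 41%, among those with the lower GC content the shares were 14.6%, 16.4%, 24.3%, 28.0% and 50.8%, and among those with the higher GC content 2.08%, 5.76%, 4.44%, 3.05% and 16.7%. The part of GC content in these shares was not tested. With a minimum of 1 FPKM the lowest and highest quintiles held 11.4% and 31.9%, and the 6 fits that left out a polysome library gave 6.57% to 9.43% and 39.1% to 41.7%. These shares are descriptions without a test, and a match of letters is not evidence that a site is used.

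**Figure D4:**
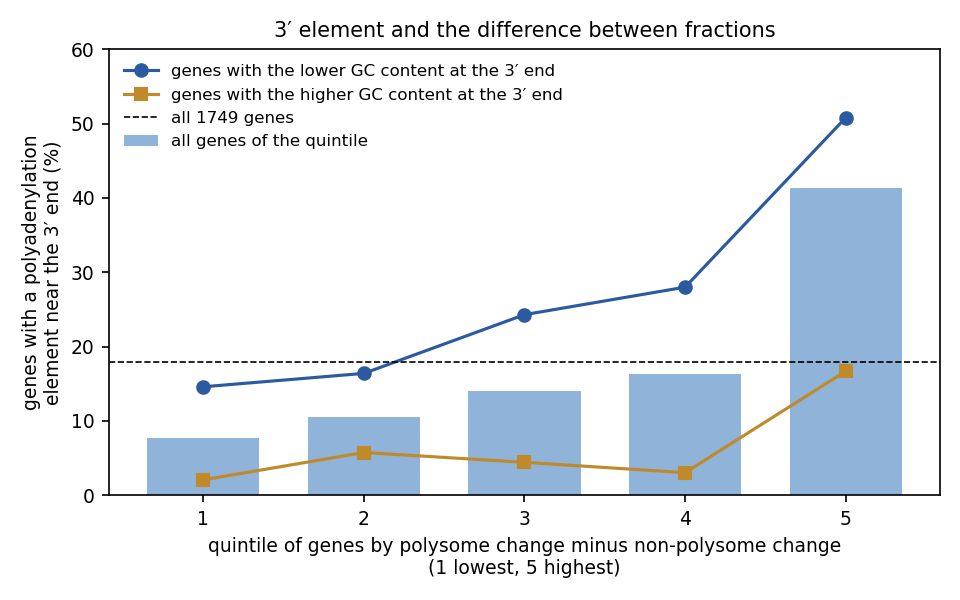
Share of genes with a CPE in the last 100 bases (y axis, %) by quintile of the polysome change minus the non-polysome change (x axis), as bars for all genes of the quintile and lines for genes with lower and higher GC content at the 3′ end, with a dashed line at the 18% of all 1749 genes. The bar of the highest quintile reaches 41.4%, and the others stay between 7.71% and 16.3%.

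The meiotic change was last compared with entry into M-phase in embryos, in polysomes, where no library is shared between the changes. It was more positive than that of the zygote for 403 genes (5.06%) and more negative for 355 (4.46%). Against the two-cell embryo these counts were 1489 (18.7%) and 385 (4.83%). Quantile scaling turned them into 872 and 1085 for the zygote and 1158 and 1261 for the two-cell embryo. The median difference from the two-cell embryo went from 1.41 to -0.17. The embryos, unlike MII oocytes, were held with nocodazole, so stage and drug cannot be told apart in these differences. Cdc20 rose by 4.81 on the log2 scale in oocytes and stood 6.16 higher in zygote M than in zygotes (2.35 ± 0.903 to 166 ± 51.5 FPKM, SD, n = 3). In two-cell embryos it went from 27.4 ± 7.32 to 71.4 ± 13.3 FPKM, a smaller change than in oocytes by 3.42 (adjusted p = 1.63e-05). Nip7 changed by 3.59, 3.14 and 2.80, and Cenpa by 2.45, 1.79 and 2.36, in oocytes, zygotes and two-cell embryos.

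Pttg1, securin, was at 199 ± 82.4 FPKM in zygotes and 2650 ± 422 FPKM in zygote M, a change of 3.83 where oocytes had -3.35, a difference of -7.18 (adjusted p = 4.05e-10). Plat, with 3.50 in oocytes, stood at 26.9 ± 1.53 FPKM in zygotes and 1.0 ± 0.193 FPKM in zygote M, a difference of 8.26. Cdk1 changed by -3.03 in oocytes, -2.30 in zygotes and 2.17 in two-cell embryos, where it went from 1.13 ± 1.05 to 3.80 ± 1.95 FPKM (difference between oocytes and two-cell embryos -5.20, adjusted p = 6.42e-05). Ooep changed by -3.84, -2.99 and -3.24. Omt2a rose by 3.32 in oocytes and went from 23.6 ± 3.04 to 439 ± 101 FPKM from zygote to zygote M, whereas in two-cell embryos it stood at 482 ± 29.3 and 160.2 ± 111 FPKM. H2afx, with 6.52 in oocytes, changed by -0.50 in zygotes and 2.98 in two-cell embryos.

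**Figure D5:**
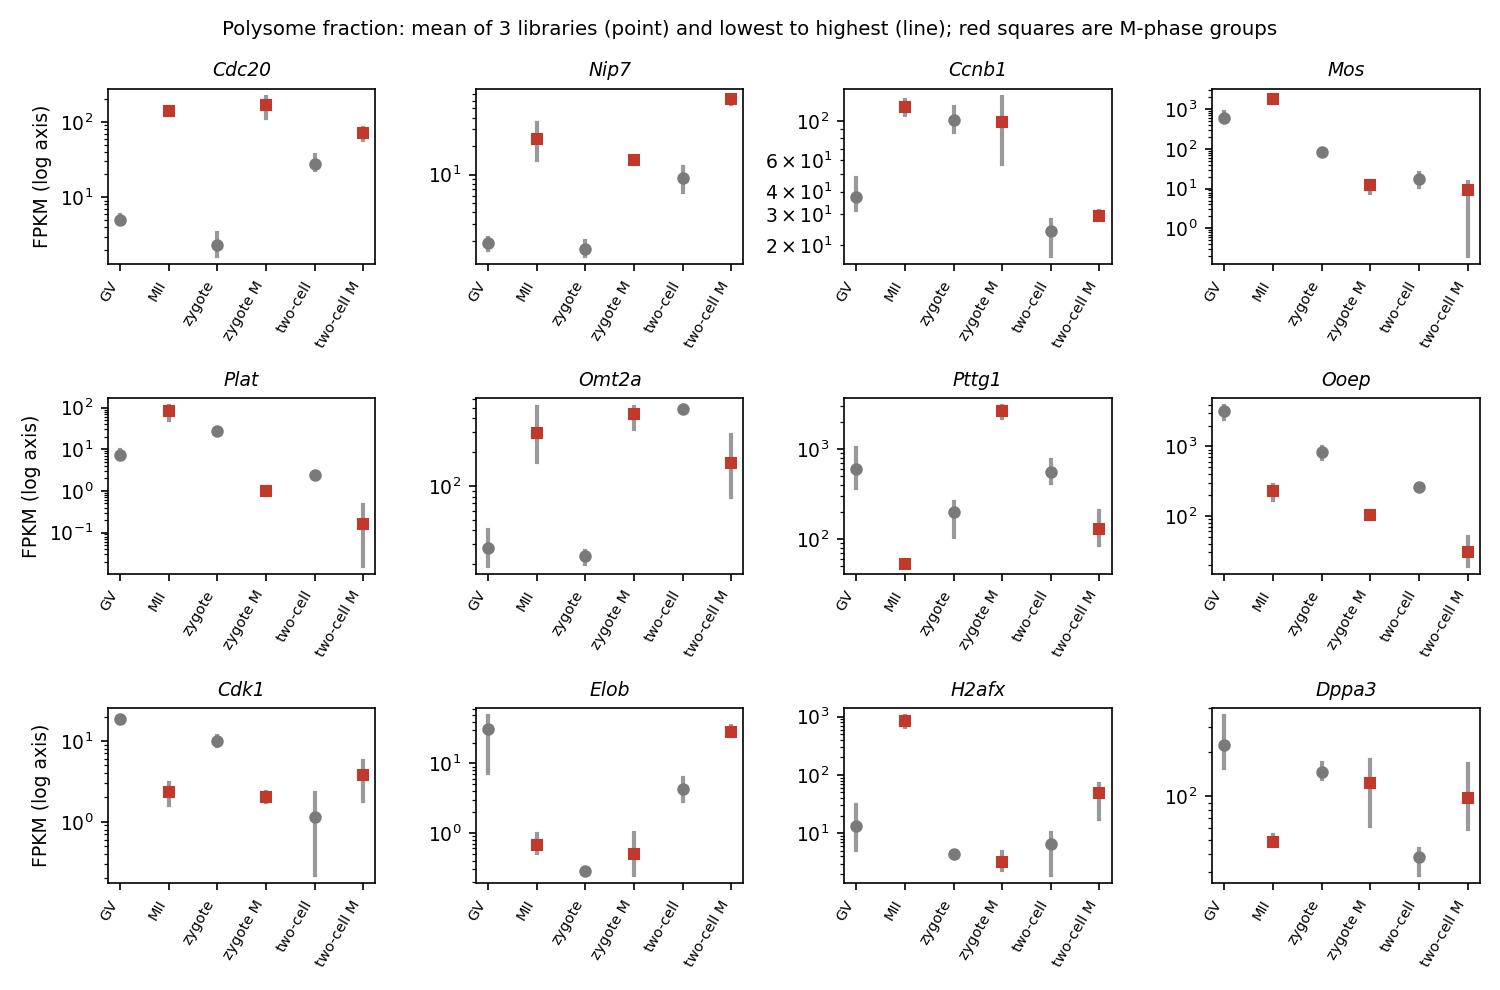
FPKM in polysomes on log axes for 12 genes in 6 groups, with points at the mean of 3 libraries, lines from the lowest to the highest library, grey circles for GV, zygote and two-cell and red squares for MII, zygote M and two-cell M. Cdc20 is higher in each M-phase group, while Pttg1 is lower in MII and two-cell M and reaches 2650 FPKM in zygote M.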

How the data were processed

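Polysome and non-polysome RNA was amplified by the authors with an oligo-dT primed kit (SMART-seq v4), so that messages were read through their poly(A) tails, and whether tail length moved a value was not tested. Per the labels and the study's methods, reads were trimmed with Trim Galore 0.4.1 and mapped to GRCm38 with STAR 2.5.3a. The deposited values are normalized FPKM, quantified by the authors in Partek, with a floor of 0.01 in every library and no counts, so intervals from counting are not given.

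Log2 FPKM, with nothing added, was fitted in limma 3.58.1 (R 4.3.3) with 1 mean for each of 12 groups over 36 libraries, and variances were moderated by empirical Bayes along a trend with level. Genes needed a geometric mean of at least 0.1 FPKM. Tests are two-sided with Benjamini-Hochberg adjustment over 7967 genes, and calls need an adjusted p under 0.05 and a fold beyond 2. Differences between changes are contrasts of that fit. Replicates are the biological triplicates of the labels, and their letters do not pair stages: MII and GV polysome libraries of the same letter had residual correlations of -0.0899, 0.0159 and -0.0454. Both fractions of a stage and letter come from the same gradients and are paired by that origin (residual correlations of -0.00625 to 0.141 in oocytes), so the difference between fractions was also fitted within letters. Stages follow the column names and sample titles. A supplementary list of the study carries the GV and MII headings exchanged relative to these columns, while its other lists carry headings that match them, and each direction given rests on the column names.

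Named genes are a set of anchor genes, the 12 largest rises and 12 largest falls among called protein-coding genes without overlap and with at least 10 FPKM in the higher group, up to 4 called genes per list and direction (or, with none called, the 2 of smallest adjusted p), and the 6 of smallest adjusted p in each direction for the difference between fractions. Obox1, Cox6a1, Cox6b1 and Ndufa1 were named outside that rule to complete a count, as were Fbxl6, Gm11993, Gm10288, Gm9797, Gm9035, Rpl10l, Rps27 and the abundant Ubb, AU022751 and Gm1821. Members and gene lists were chosen with earlier results of these data known, so a list's counts are a description. The rule takes 141 genes, of which those given in the text are a part. Sequences are from GENCODE and RefSeq, read with Python 3.11.15. The fitting was tested on simulated data. Alternatives changed the value added, the minimum, the scaling, the libraries fitted and the replicate block, and left out each of the 6 GV and MII polysome libraries in turn, and no other library.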

Additional observations from a re-analysis of the deposited data

Results flagged for a closer look

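The results below were singled out because a change differed between fractions or between stages in a test of the difference itself. Values are differences of log2 changes from limma over 36 libraries, and p-values are adjusted by Benjamini-Hochberg.

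Between polysomes and non-polysomes 13 genes differed. The named ones were Magoh by 4.24, Cdc20 by 3.79, Nip7 by 3.69, Omt2a by 3.34, Tcl1b1 by 3.16, Omt2b by 2.65 and H3f3b by 1.78, each with the more positive change in polysomes, and 0610012G03Rik by -2.59. Within stage and letter, 0 were called.

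Between meiotic maturation and entry into M-phase of the zygote 758 genes differed. Plat differed by 8.26, Pttg1 by -7.18, Elob, elongin B, by -5.68 and Dppa3 by -1.72. Elob was at 0.284 ± 0.028 FPKM in zygotes and 0.498 ± 0.423 FPKM in zygote M (SD, n = 3), where it fell in oocytes.

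Between meiotic maturation and M-phase entry of the two-cell embryo 1874 genes differed. Differences were more positive in oocytes for Plat (9.04), Fbxo43 (6.22), Pabpc1l (6.03), Wee2 (5.87), Cnot7 (4.71), Btg4 (4.31) and Cdc20 (3.42). Fbxo43 is an inhibitor of the APC/C, Pabpc1l an embryonic poly(A)-binding protein and Wee2 an oocyte kinase that inhibits CDK1. None of these 3 was called between MII and GV over 36 libraries, and each was low in two-cell M, at 0.0213 ± 0.0166, 0.780 ± 0.662 and 1.12 ± 1.09 FPKM. Plat, Cnot7 and Btg4 were not called between MII and GV in that fit either (adjusted p = 0.137, 0.816 and 0.51). Cnot7 and Btg4 changed by 0.70 and 0.77 in oocytes, with overlapping groups, and by -4.02 and -3.54 in two-cell embryos. Differences were more negative for Elob (-7.94), Cdk1 (-5.20) and Dppa3 (-3.32).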

How the results depend on the processing

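Of 105 named genes called between MII and GV, 65 passed the threshold under all of the 17 alternatives that tested them. The alternative with a mean of at least 1 FPKM left some named genes untested. Of the 105, 40 lost the call without at least 1 library, and none changed sign. Among 35 uncalled named genes 5 changed sign somewhere: Ccnb2 (0.18 without MII B and 0.38 without GV C, over a range of -0.37 to 0.38 without 1 library), Nlrp5 (0.03, 0.29, 0.16 and 0.21 without MII B, MII C, GV A and GV C, range -0.68 to 0.29), Prm2 (-0.06 without MII C and -0.29 without GV C, range -0.29 to 0.53), Zp1 (-0.25 without GV C, range -0.25 to 0.37) and Zp2 (-0.00 with 1 added, -0.30 after quantile scaling, -0.19 with array weights, and -0.24, -0.15 and -0.55 without MII A, MII C and GV B, range -0.55 to 0.41).

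The 487 calls became 1066 with 0.1 and 1604 with 1 added to each FPKM, 1545 after quantile scaling, 2162 in the 6-library fit, 1156 over 18 polysome libraries, 1531 over 12 oocyte libraries and 2228 with array weights, and 292 to 414 without 1 library. The 13 differences between fractions became 30 with 0.1 and 112 with 1 added, 70 after quantile scaling and 173 over 12 oocyte libraries. They numbered 4 to 24 without 1 library and 290 with array weights. Of those 290, 110 were more positive in polysomes and 180 more negative, against 9 and 4 of the 13. With the replicate letter as a block limma called 464 genes in polysomes, and the difference of fractions within each letter gave 0 (612 genes at an unadjusted p under 0.05, against 587 in the fit without pairing). The 758 differences from the zygote became 1957 after quantile scaling, 1607 over 18 polysome libraries and 3465 with array weights. The 1874 from the two-cell embryo became 2419 after quantile scaling, 2914 over 18 polysome libraries and 2150 with array weights. The cause was not tested, except that fits of fewer libraries use another spread. The share of genes with a CPE went from 7.71% to 11.4% in the lowest quintile and from 41.4% to 31.9% in the highest with a minimum of 1 FPKM, and to 49.1% when any annotated transcript end counted. Without 1 library the shares were 6.57% to 9.43% and 39.1% to 41.7%.

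Library depth is known only relative to other libraries, and values near 0.01 FPKM limit the size of fold changes. With 3 libraries a stage, exact tests of single values cannot go under a p of 0.1.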
